A study of Mus musculus with 2 samples.

Results

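The genes described here are 10 members of the machinery that shows antigens to T cells: the class I heavy chains H2-K1, H2-D1 and H2-T23, the light chain gene B2m, the peptide transporter genes Tap1 and Tap2, the loading factor gene Tapbp, the immunoproteasome genes Psmb8 and Psmb9, and the costimulatory gene Cd80. They were picked by name from the 21937 genes of the table, of which 18759 had reads, and all 10 had reads. The list was drawn up with the contrast of ICRF-193 against DMSO already known, so fold changes and p-values of that contrast describe these genes and are not independent tests of them. The cells were wild-type mouse embryonic stem (ES) cells of mixed 129Sv-C57Bl/6 strain, cultured without feeder cells. The ICRF-193 group received 500 nM ICRF-193 for 16 h from 32 h after seeding, and the DMSO group received the solvent for the same time. ICRF-193 blocks the catalytic cycle of topoisomerase II, the enzyme that passes DNA duplexes through each other, and the study asked what topoisomerase II activity does for transcription. Each group held 3 libraries of messenger RNA, and no other genotype, dose or time was part of the comparison.

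Class I molecules carry short peptides from inside the cell to its surface, where CD8 T cells and natural killer cells read them. The proteasome cuts proteins into peptides, the transporter associated with antigen processing moves them into the endoplasmic reticulum, tapasin holds the empty class I molecule next to the transporter, and a heavy chain leaves for the surface only when paired with beta-2-microglobulin and a peptide. CD80 supplies the second signal that a T cell needs, by binding CD28, or restrains it by binding CTLA-4. Mouse ES cells are known for carrying little class I protein at their surface.

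The deposited table gives the mean of normalised reads per gene in each group, where the reads of a library are divided by its size factor. Whole reads of each library were worked back from the digits of these means, and the letters A, B and C order the libraries of a group from the largest size factor to the smallest and stand for no replicate number. Recovered depth was 24605431 to 38761482 reads per library. The labels do not say that the libraries came from separate cultures, so every p-value measures only the spread between these libraries, which may be technical. Libraries A stood apart in both groups. The summed level of 9 fibroblast markers with library values was 20840 normalised reads in ICRF-193-A and 3293 and 2675 in libraries B and C of that group, and 18370 in DMSO-A with 1865 and 1910 beside it. Col1a1 made up most of the sum in libraries A, at 15180 in ICRF-193-A and 12910 in DMSO-A. Col1a2, Col3a1, Pdgfra, Pdgfrb and Postn were also higher in libraries A of both groups. Thy1 was lower there, and Dcn and Lum had few reads. What set libraries A apart was not tested. Because they stood apart, values are also given for libraries A alone (pair A) and for the means of libraries B and C (pairs B and C). These names do not match a library to any library of the other group. All 8 markers of ES cells were present, and all 8 had a fold below 1 in the authors' deposited table. Their median log2 fold change was -0.55, against -0.05 over all genes with a mean of at least 10 normalised reads. At an unadjusted p under 0.05, 3 were lower, as were 1010 of the 18759 genes with reads. At an adjusted p under 0.05, 1, Zfp42, was called lower (0.504-fold), as were 1.26% of all genes. Of the 4 with library values, limma-voom called 2 lower, where it called 5.82% of all genes lower. Nanog was the lowest of the 8 markers, at a mean of 491.5 normalised reads in ICRF-193 cells and 702 in DMSO cells.

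Of the 10 genes, Cd80, Tap1, Tap2 and B2m were higher in ICRF-193 cells than in DMSO cells in the authors' deposited table, at 9.28-fold, 4.12-fold, 2.11-fold and 1.90-fold. None of the class I heavy chains was called: H2-D1 stood at 1.002-fold, H2-T23 at 1.08-fold and H2-K1 at 0.747-fold in the authors' deposited table. The immunoproteasome pair was split, with Psmb9 at 1.94-fold and Psmb8 at 0.818-fold, and Tapbp was at 0.887-fold in the authors' deposited table. With a threshold of 0.05 on the adjusted p, 4 of 10 genes were called higher and 0 lower. Of the 18759 genes with reads 7.23% were called, 5.97% higher and 1.26% lower. At an unadjusted p under 0.05, 5 of 10 were higher and 0 lower, beside 2153 and 1010 of those 18759 genes. Nothing about the list can be read from these counts, because the list was chosen with the contrast known. In 4 of 10 genes, which are the same 4, every ICRF-193 library lay above every DMSO library, as it did in 18.8% of the 14855 genes compared by library. In the other 6 the libraries of the groups overlapped, and 0 of 10 had every ICRF-193 library below every DMSO library, as 18.6% of those 14855 genes did. On the recovered reads limma-voom called 3 of 10, Cd80, Tap1 and B2m, where 15.7% of genes were called (15.2% with upper-quartile scaling, 15% with scaling by total reads and 11.9% with no filter on low reads, each with 3 of 10). With a term for the difference between libraries A and the rest it called 7 of 10, 5 higher (with Tap2 and Psmb9) and 2 lower (H2-K1 and Tapbp), but 59.5% of all genes, 27.2% higher and 32.3% lower. Without libraries A of both groups it called 5 higher and H2-K1 lower, where 53.7% of all genes were called, 25.2% higher and 28.5% lower. In bulk RNA a change in how many cells express a gene and a change in RNA per cell cannot be told apart.

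**Figure D1:**
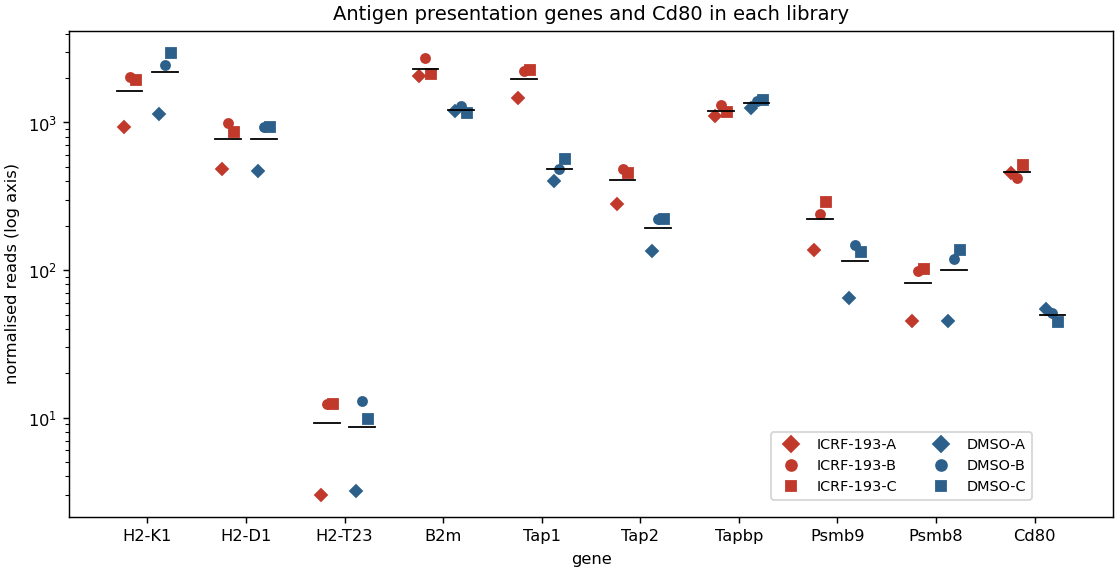
Normalised reads (log axis) of the 10 genes in each library, with ICRF-193 libraries in red to the left of DMSO libraries in blue and black lines at the group means (3 libraries each). Cd80, Tap1, Tap2 and B2m have no overlap between the groups, and library A (diamonds) is the lowest library of its group in 8 of 10 genes.

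Among the heavy chains, H2-K1 encodes the classical class I molecule K. It had 925.5, 2028 and 1936 normalised reads in libraries A, B and C of ICRF-193 cells, against 1133, 2469 and 2940 in libraries A, B and C of DMSO cells. The groups overlapped, and library A held less than the other libraries of its group on both sides. The means were 1630 ± 612 normalised reads in ICRF-193 cells and 2181 ± 937 in DMSO cells (SD, n = 3 each). H2-K1 had a log2 fold change of -0.42 in the authors' deposited table (adjusted p = 0.853). ICRF-193-A lay below DMSO-A, and libraries B and C of ICRF-193 cells lay below both B and C of DMSO cells, with 0.816-fold for pair A and 0.733-fold for pairs B and C.

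H2-D1 encodes the classical class I molecule D. It had 482, 986 and 861 normalised reads in libraries A, B and C of ICRF-193 cells, against 468, 928 and 929 in libraries A, B and C of DMSO cells. The values of the groups were close in each set of libraries, at 1.03-fold for pair A and 0.994-fold for pairs B and C. In the authors' deposited table H2-D1 had a log2 fold change of 0.00 (adjusted p = 1). Transcript length, here and below, is that of the longest protein-coding transcript of the gene in the GENCODE annotation. The ratio of H2-K1 to H2-D1 per transcript length was 2.49, 2.67 and 2.92 in libraries A, B and C of ICRF-193 cells, against 3.14, 3.46 and 4.11 in libraries A, B and C of DMSO cells. Every ICRF-193 library thus had a lower ratio of H2-K1 to H2-D1 than every DMSO library.

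H2-T23 (chromosome 17, 36029773 to 36032855, minus strand, GENCODE annotation of GRCm38) encodes the non-classical molecule Qa-1, which shows leader peptides of other class I chains to an inhibitory receptor of natural killer cells. It was close to the limit of detection, with 3, 12 and 11 reads in libraries A, B and C of ICRF-193 cells, against 4, 13 and 9 in libraries A, B and C of DMSO cells. No difference between the groups was detectable at this depth. The heavy chains share sequence with each other and with neighbouring class I genes: of all stretches of 50 bases in the transcript, 28.8% in H2-T23, 14.3% in H2-D1 and 8.79% in H2-K1 also occur in another gene. How the authors' counting treated reads of such stretches is not given in the sources used here, so these 3 levels are uncertain.

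The promoters of H2-K1 and H2-D1 are shown because the genes share most of this sequence while their ratio differed between the groups. Sequences are from RefSeq on the GRCm38.p6 build, which is later than the mm9 build that the authors used, and each ends at the base before the annotated start. Capitals mark the NF-kB site and the CCAAT box, which is written ATTGG where it lies on the opposite strand.
H2-K1, chr17:34000348-34000597, minus strand: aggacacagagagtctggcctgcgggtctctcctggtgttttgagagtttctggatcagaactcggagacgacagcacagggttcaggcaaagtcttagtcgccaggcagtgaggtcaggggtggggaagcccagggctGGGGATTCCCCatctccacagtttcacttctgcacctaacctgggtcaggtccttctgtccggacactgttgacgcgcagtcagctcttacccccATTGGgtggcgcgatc
H2-D1, chr17:35262844-35263093, plus strand: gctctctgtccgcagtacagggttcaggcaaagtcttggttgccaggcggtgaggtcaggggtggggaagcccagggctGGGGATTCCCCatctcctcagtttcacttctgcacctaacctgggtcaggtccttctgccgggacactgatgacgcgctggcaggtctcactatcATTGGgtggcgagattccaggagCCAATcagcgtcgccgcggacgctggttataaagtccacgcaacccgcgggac
A local alignment without gaps matched 161 of 177 bases between these stretches (91%). The annotated start of H2-K1 lies further upstream within the shared sequence, so the NF-kB site is at -111 to -102 in H2-K1 and at -171 to -162 in H2-D1, and overlaps a further match shifted by a base in each. A window of 250 bases before to 50 bases after the start was searched on both strands in 32851 RefSeq promoters. The NF-kB site occurs in 8.46% of them and the CCAAT box in 37.4%.

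B2m encodes beta-2-microglobulin, the light chain that every class I heavy chain needs to fold and leave the endoplasmic reticulum. It had 2059, 2722 and 2132 normalised reads in libraries A, B and C of ICRF-193 cells, against 1196, 1283 and 1166 in libraries A, B and C of DMSO cells. The lowest ICRF-193 library lay well above the highest DMSO library. The means were 2304 ± 363 normalised reads in ICRF-193 cells and 1215 ± 60.7 in DMSO cells (SD, n = 3 each). In the authors' deposited table B2m had a log2 fold change of 0.92 (adjusted p = 0.00439). It was 1.72-fold higher for pair A and 1.98-fold higher for pairs B and C.

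The balance of light chain to heavy chain differed as well. Per transcript length, B2m stood over H2-K1 by 4.19, 2.53 and 2.07 times in libraries A, B and C of ICRF-193 cells, against 1.99, 0.978 and 0.747 times in libraries A, B and C of DMSO cells. By these lengths B2m was the more abundant transcript in every ICRF-193 library and in DMSO-A, and H2-K1 was in DMSO-B and DMSO-C. The order in DMSO-B and DMSO-C depends on the length taken for H2-K1. That length is 1619 bases for its longest coding transcript, used here, and 2938 over all its annotated exons. B2m has 860 bases by either measure. The ratio of B2m to H2-D1 averaged 7.75 ± 2.36 in ICRF-193 cells and 4.23 ± 1.75 in DMSO cells (SD, n = 3 each), and here the libraries overlapped, since ICRF-193-C at 6.05 lay below DMSO-A at 6.24.

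The B2m promoter is shown because, of those with a sequence here, it alone matched both patterns searched for an interferon-stimulated response element core and an NF-kB site. The core was searched as GAAA and GAAA with any 2 bases between them. Looser forms of the element were not searched, so a promoter without this core, such as that of H2-K1 or H2-D1, may still hold one. In order along the sequence, capitals mark the response element core at -139 to -130, the NF-kB site at -126 to -117 and the CCAAT box on the opposite strand at -53 to -49.
B2m, chr2:122147437-122147686, plus strand: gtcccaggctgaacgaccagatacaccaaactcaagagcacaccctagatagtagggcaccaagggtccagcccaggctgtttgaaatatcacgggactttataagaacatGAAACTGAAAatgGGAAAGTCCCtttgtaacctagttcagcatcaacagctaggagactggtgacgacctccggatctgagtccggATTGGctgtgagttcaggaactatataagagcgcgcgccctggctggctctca
The response element core occurs in 3.44% of the 32851 RefSeq windows. Among the 9 genes with a window, 2 hold it (B2m and H2-T23), 3 hold the NF-kB site (B2m, H2-K1 and H2-D1) and 7 hold the CCAAT box. None of the 9 holds a p53 half-site, which is in 8.36% of windows, or the cyclic AMP response element TGACGTCA, which is in 1.79%. These matches describe letters and show no binding.

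Tap1 and Tap2 encode the subunits that together form the peptide transporter. Tap1 had 1464, 2230 and 2253 normalised reads in libraries A, B and C of ICRF-193 cells, against 400.4, 481 and 562 in libraries A, B and C of DMSO cells. The lowest ICRF-193 library lay far above the highest DMSO library. The means were 1982 ± 449.5 normalised reads in ICRF-193 cells and 481 ± 80.8 in DMSO cells (SD, n = 3 each). In the authors' deposited table Tap1 had a log2 fold change of 2.04 (adjusted p = 3.11e-08). The fold was 3.65 for pair A and 4.30 for pairs B and C.

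Tap2 had 279, 481 and 457 normalised reads in libraries A, B and C of ICRF-193 cells, against 134, 221 and 220.5 in libraries A, B and C of DMSO cells. The groups did not overlap, and ICRF-193-A came nearest to the DMSO libraries. In the authors' deposited table Tap2 had a log2 fold change of 1.08 (adjusted p = 0.024). The fold was 2.09 for pair A and 2.12 for pairs B and C, so the gap between the groups was of like size in each set of libraries.

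The fold of Tap1 was the larger of the pair. The ratio of Tap1 to Tap2 per transcript length was 6.11, 5.40 and 5.75 in libraries A, B and C of ICRF-193 cells, against 3.49, 2.53 and 2.97 in libraries A, B and C of DMSO cells. Every ICRF-193 library had a higher ratio than every DMSO library, with means of 5.76 ± 0.355 in ICRF-193 cells and 3.00 ± 0.478 in DMSO cells (SD, n = 3 each).

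Tapbp (chromosome 17, 33915899 to 33929292, plus strand, GENCODE annotation of GRCm38) encodes tapasin, the bridge between the transporter and the heavy chain. In that annotation 1053 of its exonic bases are shared with the overlapping genes Zbtb22 and Gm19412. Tapbp had 1107, 1321 and 1168 normalised reads in libraries A, B and C of ICRF-193 cells, against 1251, 1392 and 1414 in libraries A, B and C of DMSO cells. The groups overlapped and the spread within each was small. Tapbp had a log2 fold change of -0.17 in the authors' deposited table (adjusted p = 0.882), with 0.885-fold for pair A and 0.887-fold for pairs B and C. The ratio of Tap1 to Tapbp per transcript length was 1.62 ± 0.300 in ICRF-193 cells and 0.348 ± 0.0388 in DMSO cells (SD, n = 3 each). By these lengths Tap1 was above tapasin in every ICRF-193 library and below it in every DMSO library. In ICRF-193-A that order depends on the lengths taken. The longest coding transcripts, used here, have 2953 bases in Tap1 and 2898 in Tapbp, and all annotated exons have 5476 and 3628.

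Psmb9 and Psmb8 encode catalytic subunits of the immunoproteasome, which take the places of Psmb6 and Psmb5 in the standard proteasome. Psmb9 had 138, 242 and 289.5 normalised reads in libraries A, B and C of ICRF-193 cells, against 64.5, 147 and 133 in libraries A, B and C of DMSO cells. The groups overlapped only through ICRF-193-A, which lay below DMSO-B. In the authors' deposited table Psmb9 had a log2 fold change of 0.96 (unadjusted p = 0.0283, adjusted p = 0.209). It stood at 2.13-fold for pair A and at 1.90-fold for pairs B and C.

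Psmb8 had 45.2, 98.5 and 102 normalised reads in libraries A, B and C of ICRF-193 cells, against 45.4, 119 and 136 in libraries A, B and C of DMSO cells. The libraries A were alike, and libraries B and C of ICRF-193 cells were below both B and C of DMSO cells, with 0.996-fold for pair A and 0.786-fold for pairs B and C. Psmb8 had a log2 fold change of -0.29 in the authors' deposited table (adjusted p = 0.963). The ratio of Psmb9 to Psmb8 per transcript length was 3.67, 2.95 and 3.41 in libraries A, B and C of ICRF-193 cells, against 1.71, 1.48 and 1.17 in libraries A, B and C of DMSO cells. Every ICRF-193 library had a higher ratio of Psmb9 to Psmb8 than every DMSO library.

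The genes Psmb9, Tap1, Psmb8 and Tap2 lie side by side within 34.3 kb of the class II part of the major histocompatibility complex (chromosome 17, 34181987 to 34216321, GENCODE annotation of GRCm38). Neighbours in this block differed in fold. Tap1 and Psmb9 are transcribed away from each other and were at 4.12-fold and 1.94-fold in the authors' deposited table, while Psmb8, which begins just downstream of the end of Tap1 on the same strand, was at 0.818-fold. The gene bodies of Psmb9 and Tap1 overlap by 212 exonic bases at their starts in this annotation, and Psmb8 and Tap2 overlap antisense genes. The strand of the libraries is not given in the sources used here, so reads in those overlaps cannot be assigned to a gene.

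**Figure D2:**
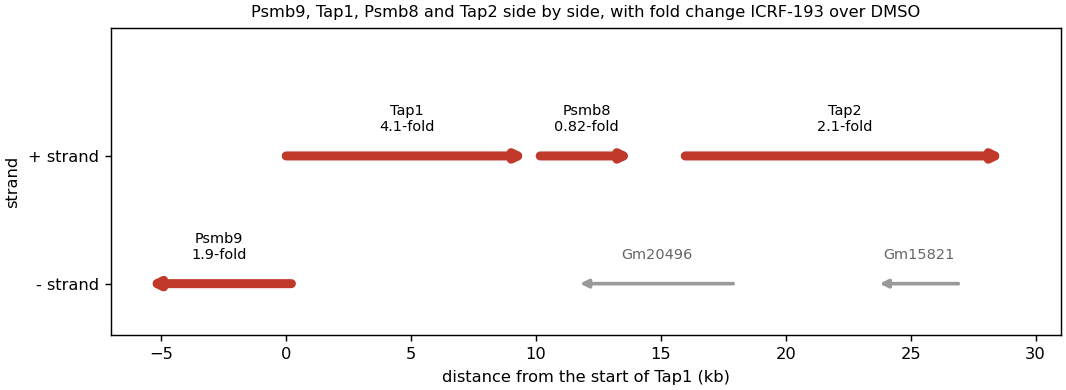
Map of the block that holds Psmb9, Tap1, Psmb8 and Tap2, by distance from the annotated start of Tap1 in kb, with arrows pointing in the direction of transcription and the 10-gene list in red. Labels give the fold of ICRF-193 over DMSO: Tap1 and Tap2 are at 4.1 and 2.1, Psmb9 at 1.9, and Psmb8, between Tap1 and Tap2, at 0.82.

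The stretch between the RefSeq starts of Psmb9 and Tap1 is shown because the genes on its sides differed in fold. It is 225 bases long, Psmb9 begins to its left on the minus strand and Tap1 to its right on the plus strand, and capitals mark the CCAAT box, the single motif found in it.
Psmb9 to Tap1, chr17:34187331-34187555, plus strand: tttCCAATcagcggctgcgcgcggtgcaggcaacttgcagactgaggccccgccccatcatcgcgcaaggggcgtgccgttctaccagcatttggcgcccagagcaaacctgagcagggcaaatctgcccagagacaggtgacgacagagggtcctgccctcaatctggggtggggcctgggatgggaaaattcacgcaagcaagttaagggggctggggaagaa
The same box lies at -8 to -4 of Psmb9, on the opposite strand, and at -222 to -218 of Tap1. Tap2 had no window in the table used here.

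Cd80 encodes the costimulatory ligand of CD28 and CTLA-4 and is best known from activated B cells, dendritic cells and macrophages. It had 453, 421 and 518.5 normalised reads in libraries A, B and C of ICRF-193 cells, against 54.1, 51.6 and 44.3 in libraries A, B and C of DMSO cells. The groups were far apart and the libraries within a group were close. The means were 464 ± 49.7 normalised reads in ICRF-193 cells and 50.01 ± 5.10 in DMSO cells (SD, n = 3 each). In the authors' deposited table Cd80 had a log2 fold change of 3.21 (adjusted p = 4.01e-23). The fold was 8.36 for pair A and 9.80 for pairs B and C. Cd80 lies on chromosome 16 (38455561 to 38496335, plus strand, GENCODE annotation of GRCm38), no annotated gene overlaps it, and 0 of its transcript's stretches of 50 bases occur in another gene. Its promoter is shown as that of the gene with the largest fold on the list, and it has no capitals because none of the 5 motifs is in its window. The RefSeq start used for it lies inside the longer GENCODE gene.
Cd80, chr16:38458683-38458932, plus strand: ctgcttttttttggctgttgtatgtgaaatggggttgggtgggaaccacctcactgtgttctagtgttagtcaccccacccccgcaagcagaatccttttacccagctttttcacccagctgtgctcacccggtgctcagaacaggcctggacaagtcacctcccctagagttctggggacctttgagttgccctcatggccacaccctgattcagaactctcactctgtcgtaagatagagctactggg

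Levels of different genes were compared per kb of the longest coding transcript, and parts of the order depend on that choice of length. Psmb9, for example, has 1352 bases in that transcript and 3660 over all its annotated exons. With the latter it would come after Cd80 and Tap2 in ICRF-193 cells. In ICRF-193 cells B2m came first at 2679 normalised reads per kb, followed by H2-K1 at 1007, Tap1 at 671, Tapbp at 414, H2-D1 at 369, Psmb9 at 165, Cd80 at 146, Tap2 at 118, Psmb8 at 50.3 and H2-T23 at 6.29. Neighbours in this order whose library ranges overlapped were H2-K1 and Tap1, Tapbp and H2-D1, Psmb9 and Cd80, and Cd80 and Tap2. In DMSO cells the order was B2m at 1413 normalised reads per kb, H2-K1 at 1347, Tapbp at 467, H2-D1 at 369, Tap1 at 163, Psmb9 at 84.9, Psmb8 at 61.5, Tap2 at 55.7, Cd80 at 15.8 and H2-T23 at 5.84. There B2m and H2-K1, Tapbp and H2-D1, Psmb9 and Psmb8, and Psmb8 and Tap2 overlapped. Tap1 thus stood in the third place in ICRF-193 cells and in the fifth in DMSO cells, and Cd80 in the seventh and in the ninth.

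**Figure D3:**
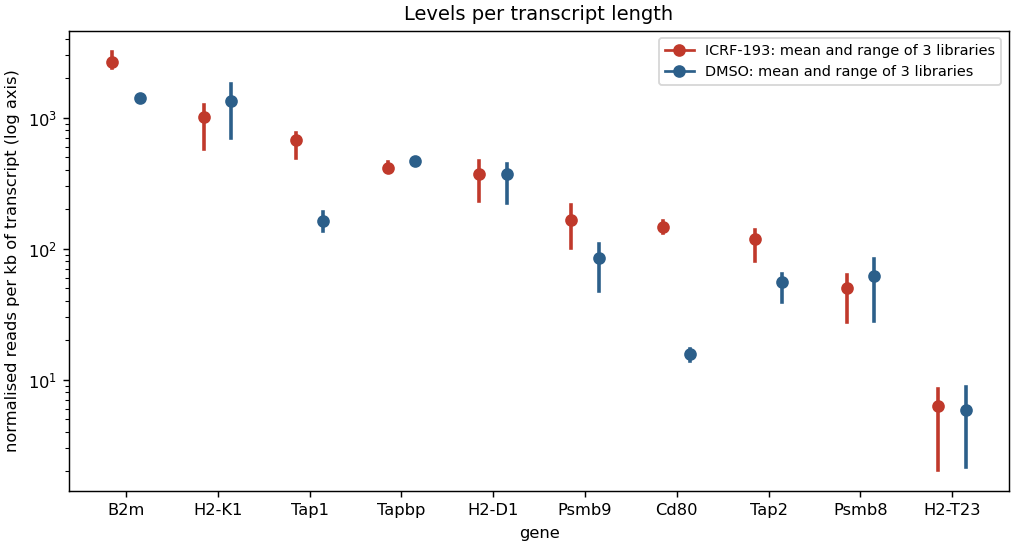
Normalised reads per kb of transcript (log axis) for the 10 genes, ordered by their level in ICRF-193 cells, with ICRF-193 in red to the left of DMSO in blue. Points are means and lines the range of 3 libraries; B2m leads both groups at 2679 and 1413, and Cd80 has the widest gap, 146 against 15.8.

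The spread among libraries was itself patterned. In 8 of 10 genes library A lay below libraries B and C in both groups. The shift was strongest in H2-T23, at 0.243 of the mean of B and C in ICRF-193 cells and 0.281 in DMSO cells, and was 0.450 and 0.356 for Psmb8, 0.467 and 0.419 for H2-K1, and 0.518 and 0.461 for Psmb9. Cd80 showed no such shift, at 0.964 in ICRF-193 cells and 1.13 in DMSO cells, and B2m was at 0.848 and 0.977. The fold of ICRF-193 over DMSO was nonetheless close in the separate library sets for Tap2 and Tapbp, and the sign in pair A differed from that in pairs B and C for H2-D1 and H2-T23, whose folds were near 1.

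**Figure D4:**
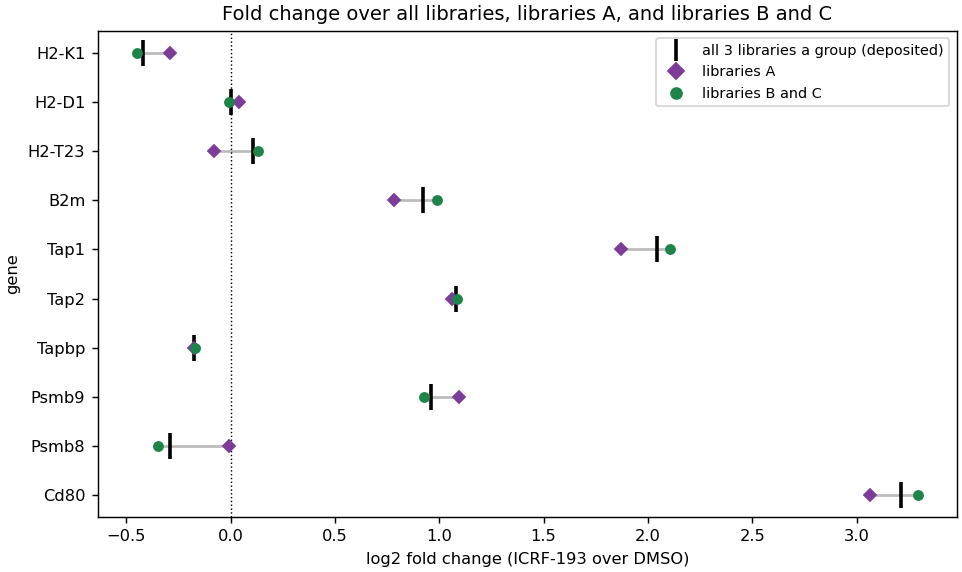
Log2 fold change of ICRF-193 over DMSO for each of the 10 genes, from the authors' means of all libraries (black bars), from libraries A (diamonds) and from libraries B and C (circles). Cd80, Tap1, Tap2, Psmb9 and B2m stay well to the right of 0 in both sets, from 0.78 for B2m in pair A upward, and the other 5 genes lie between -0.45 and 0.13.

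Around these genes, 9 lists of the same pathway held 144 further genes with reads, of which 10 were called higher and 2 lower in the authors' deposited table by the same threshold, beside 7.23% of all genes called, 5.97% higher and 1.26% lower. At an unadjusted p under 0.05, 2153 of the 18759 genes with reads were higher and 1010 lower. limma-voom called 9.83% of all genes higher and 5.82% lower. These shares hold for the counts of each list below as well. Over the pathway genes with a mean of at least 10 normalised reads the median log2 fold change was 0.03, against -0.05 over all genes at that level. Nlrc5, the transactivator of class I genes, had the largest fold among them, at 254, 339 and 306 normalised reads in libraries A, B and C of ICRF-193 cells, against 23.9, 44.6 and 40.0 in libraries A, B and C of DMSO cells. It rose 8.29-fold in the authors' deposited table (adjusted p = 1.82e-19). Of 29 regulators, Nlrc5 and Irf7 were called higher and 0 lower. Irf7, an interferon regulatory factor, had few reads, with 16.2 ± 3.63 normalised reads in ICRF-193 cells and 2.47 ± 1.28 in DMSO cells (SD, n = 3 each). It was at 6.56-fold in the authors' deposited table (adjusted p = 0.015). Other regulators of class I genes were not called in the authors' deposited table: Irf1 stood at 0.852-fold, Irf2 at 1.86-fold, Rela at 1.25-fold and Nfkb1 at 1.09-fold.

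The other class I and class I-like chains held 0 genes called higher, 0 at an unadjusted p under 0.05 and 0 of 14 tested by limma-voom. In the other direction, 3 were lower at an unadjusted p under 0.05 and limma-voom called 2 lower. With the term for libraries A it called 1 higher and 4 lower, beside 27.2% and 32.3% of all genes. Of 23 with reads, 2 were called lower in the authors' deposited table, H2-Bl at 0.463-fold (adjusted p = 0.0175) and H2-M5 at 0.582-fold (adjusted p = 0.0354). Of 11 genes of peptide loading and trimming and 20 of the proteasome, 0 were called in either direction in the authors' deposited table. At an unadjusted p under 0.05 there was 1 gene higher in the loading list and 0 in the proteasome list, and 0 lower in either. By limma-voom 0 were called in the loading list and 1, Psme3, was called lower in the proteasome list (adjusted p = 0.0326). With the term for libraries A limma-voom called 1 higher and 2 lower among 7 loading genes, and 0 higher and 15 lower among 20 of the proteasome, where it called 27.2% of all genes higher and 32.3% lower. The proteasome list had a median log2 fold change of -0.23 in the authors' deposited table. Its subunits that Psmb9, Psmb8 and Psmb10 can replace had ratios of 0.835 for Psmb6, 0.750 for Psmb5 and 0.829 for Psmb7, and the third immunoproteasome gene, Psmb10, had 0.640 in the authors' deposited table (adjusted p = 0.534).

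In the class II pathway, which serves CD4 T cells, 2 of 13 genes with reads were called higher and 0 lower in the authors' deposited table. H2-Eb1, a class II beta chain, was at 190 ± 42.1 normalised reads in ICRF-193 cells and 26.7 ± 3.59 in DMSO cells (SD, n = 3 each). That is 7.12-fold in the authors' deposited table (adjusted p = 1.17e-12). Cd74, the invariant chain, was at 327 ± 14.1 normalised reads in ICRF-193 cells and 156 ± 7.01 in DMSO cells (SD, n = 3 each). It was at 2.10-fold in the authors' deposited table (adjusted p = 0.00282). Of 20 interferon-induced genes outside antigen presentation, Gbp3, Usp18 and Irgm1 were called higher and 0 lower, at 2.52-fold, 5.06-fold and 2.20-fold in the authors' deposited table. Among the regulators, the class II pathway and the interferon-induced genes, 4, 2 and 7 were higher at an unadjusted p under 0.05. By limma-voom 3, 2 and 4 were higher, and 0 were lower by either measure. Over those with a mean of at least 10 normalised reads, the median log2 fold changes of these lists were 0.085, 0.387 and 1.13. With the term for libraries A limma-voom called 13 of 29, 3 of 7 and 8 of 15 of them higher and 9, 0 and 1 lower, beside the same 27.2% and 32.3% of all genes.

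Beside Cd80, the other ligand of CD28, Cd86, was near the limit of detection, with a mean of 3.15 normalised reads in ICRF-193 cells and 1.32 in DMSO cells. Of 16 other costimulatory molecules with reads, Tnfsf9 and Cd40 were called higher and 0 lower, at 2.28-fold (adjusted p = 0.00298) and 1.91-fold (adjusted p = 0.0337) in the authors' deposited table. At an unadjusted p under 0.05, 3 were higher and 0 lower, and limma-voom called 0 lower. Cd274, which encodes PD-L1, was at 111 ± 7.92 normalised reads in ICRF-193 cells and 64.0 ± 5.41 in DMSO cells (SD, n = 3 each). Its groups did not overlap, and it was at 1.73-fold in the authors' deposited table (adjusted p = 0.13). limma-voom called 3 of 8 such molecules higher, Cd274 among them (adjusted p = 0.0251), where 9.83% of all genes were called higher. Among 5 receptors of the family, Btla, an inhibitory receptor of lymphocytes, was called higher at 6.98-fold (adjusted p = 1.68e-05) in the authors' deposited table. Of 7 ligands of natural killer cell receptors with reads, 0 were called in the authors' deposited table, 0 had an unadjusted p under 0.05, and limma-voom called 0.

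**Figure D5:**
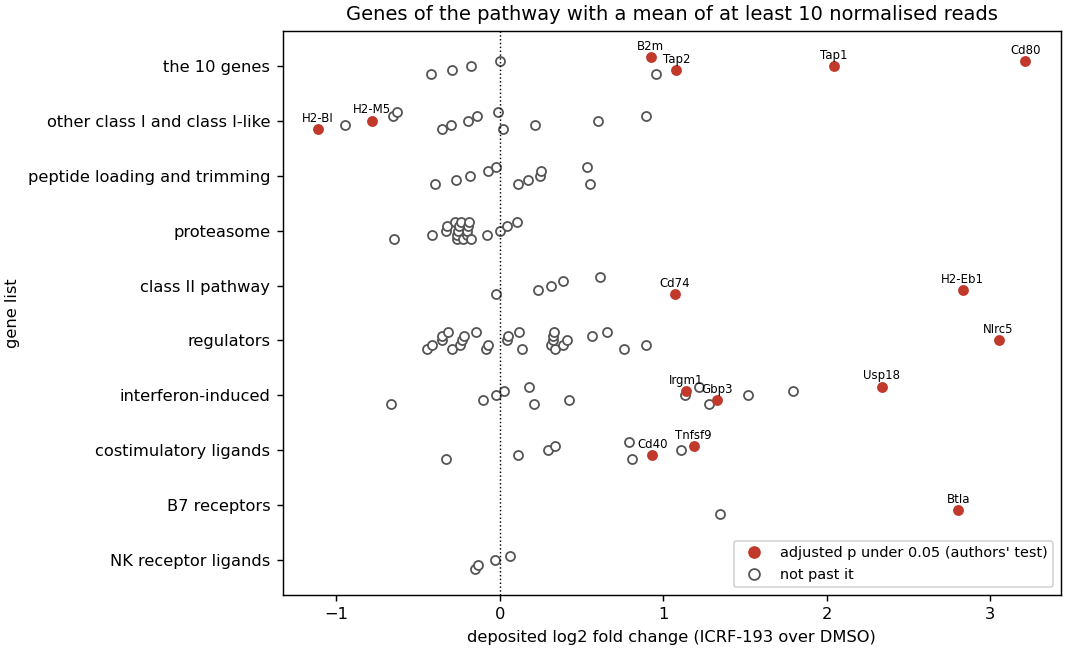
Log2 fold change of ICRF-193 over DMSO in the authors' deposited table for genes with a mean of at least 10 normalised reads, with 9 of the 10 genes in the top row and the 9 pathway lists below. Filled points have an adjusted p under 0.05; they lie to the right of 0, up to 3.21 for Cd80, except H2-Bl and H2-M5 in the class I list. H2-T23 and Irf7 are below the level plotted.

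Markers of other cells were counted beside Cd80, first those of leukocytes, which carry CD80 and class II molecules. The summed level of 14 such markers was 1322 to 1776 normalised reads in ICRF-193 libraries and 690 to 720 in DMSO libraries, and Cd68, which encodes a lysosomal protein, made up most of it. Cd68 was the 1 marker called higher in the authors' deposited table (2.53-fold, adjusted p = 8.01e-06), beside 5.97% of all genes. At an unadjusted p under 0.05, 4 of 14 were higher and 0 lower, beside 2153 and 1010 of the 18759 genes with reads. By limma-voom 2 of 10 were called higher, Cd68 and Ptprc, beside 9.83% of all genes. Itgax, Emr1, Lyz2 and Tyrobp had under 10 normalised reads in every library, and 0 of 14 markers were at 0 in all libraries. In ICRF-193 cells Cd14 averaged 49.8 ± 20.8 normalised reads, Sfpi1 30.9 ± 11.8, Cd3e 51.3 ± 11.5 and Itgam 87.4 ± 13.2 (SD, n = 3). In DMSO cells Cd14 averaged 24.1 ± 6.42 normalised reads, Sfpi1 11.1 ± 1.69, Cd3e 33.6 ± 10.9 and Itgam 78.1 ± 34.3 (SD, n = 3). Ptprc, the pan-leukocyte marker CD45, averaged 12.3 ± 2.12 normalised reads in ICRF-193 cells and 2.63 ± 1.48 in DMSO cells (SD, n = 3 each). The summed level of 5 endothelial markers was 3602 to 3786 normalised reads in ICRF-193 libraries and 3020 to 3389 in DMSO libraries. Tek was the 1 of them called higher in the authors' deposited table (2.78-fold, adjusted p = 5.86e-07), 3 were higher with an unadjusted p below 0.05, and 2 of 5 were called higher by limma-voom. These counts stand beside the same shares of all genes. The part of such cells in the level of Cd80 was not tested.

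The genes nearest to 3 of the 10 were sought by the distance between profiles over the 6 libraries, on log2 normalised reads with a pseudocount of 1 and each gene centred on its mean, among 11696 genes with a mean of at least 100 normalised reads. For Cd80 they were Gcm1, Fosl1, Trp73, 1700007K13Rik and Anxa8, at distances of 0.31 to 0.48. Among those of B2m were Afap1l1, Garnl3, Ociad2 and Palm3, at 0.17 to 0.22. For H2-K1 they were Ccdc106, 4930572J05Rik, Serpini1, Rpl36 and Ramp3, at 0.19 to 0.23. None of the 10 genes was among the 5 nearest to Cd80, B2m or H2-K1. H2-T23 and Psmb8, with means below 100, were not among the genes searched, and neighbours of the rest of the list were not sought.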

How the data were processed

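Messenger RNA was measured in 3 libraries per group, which the authors pooled in a single deposited comparison. The authors used TopHat, HTSeq and DESeq with build mm9, per the submitters' processing notes; versions, annotation and strand are not given in the sources used here. The group columns deposited by the authors hold a signal, the mean of normalised reads. The authors' other columns are a ratio (ICRF-193 over DMSO), its log2, and p-values before and after adjustment over 18759 genes. The plan allowed for counts, and the deposited test was used as the main result.

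Reads per library were recovered from the 15 printed digits by a search for whole numbers: 18205 genes had a single solution (97.05%), 382 were taken at a posterior of at least 0.99, and 172 of high level, with 17.5% of the normalised mean, stayed unresolved. All 10 genes had a single solution. Recovered depth, scaling by total reads and scaling by upper quartile leave out the 172 unresolved genes. An alternative, tested on simulated data, was limma-voom (limma 3.58.1 under R 4.3.3), run where 3 libraries or more had 10 reads or more. The 10 genes and the lists were chosen with earlier results of these data known. Named pathway genes are those called, the 2 most extreme at each end of a list, and preset regulators and counterparts, described as far as they bear on the 10 genes. Some genes that these rules name are not reported here. Sequences and lengths come from RefSeq and GENCODE on GRCm38.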

Additional observations from a re-analysis of the deposited data

How the results depend on the processing

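The deposited test called 4 of the 10 genes. limma-voom called 3 (B2m, Cd80 and Tap1), also with upper-quartile scaling, with scaling by total reads and with no filter, and 3 to 4 with 1 library left out, Tap2 being the fourth without ICRF-193-A, beside 3.94% to 20.7% of all genes. With a term for libraries A it called 7, of which H2-K1 and Tapbp were lower, beside 59.5% of all genes called, and without libraries A of both groups it called 6, beside 53.7%. The cause was not tested. Of the 144 pathway genes the deposited test called 12. Of the 106 that limma-voom tested it called 16 (15.7% of all genes), 66 with a term for libraries A and 62 without them (59.5% and 53.7% of all genes). With 1 library left out it called 4 (without ICRF-193-B, 4.07% of all genes) to 22 (without DMSO-A, 20.7%). The fits with 1 or 2 libraries left out had fewer samples. Of 120 alternative values of the 10 log2 fold changes, 119 moved by less than the spread between libraries and 1, Cd80 with a pseudocount of 10 (2.98), by more. The sign changed in 4 alternatives for H2-D1, 4 for H2-T23 and 1 for Psmb8. The median log2 fold change over all genes was 0.07 with scaling by total reads and -0.04 with the size factors. No paired analysis was possible because the labels number no library.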
